A study of Sus scrofa with 9 samples.

Results

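miR-221 and miR-222 were read in small RNA libraries of pig sperm, MII oocytes and PN embryos, as every row of the miRNA table whose name, without its species prefix, began with mir-221 or mir-222. The rule found 4 of the 1313 names in the table. They were ssc-miR-221-3p and ssc-miR-222, named after the pig, together with ssc-miR-221-5p_R-4 and ocu-miR-222-5p_L-2, which are named for the other strand of the hairpin. What _R-4, _L-2 and ocu stand for is not given in the sources used here. A row named ssc-miR-222 carries no arm in its name.

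MII oocytes are mature unfertilized eggs, here pooled from the ovaries of postpubertal slaughterhouse gilts, matured in vitro and freed of cumulus cells with hyaluronidase. PN embryos are 1-cell embryos made by in vitro fertilization, in which the maternal and paternal pronuclei have not yet joined, and sperm was purified from the fresh semen of adult Large White boars. For in vitro fertilization, the methods of the study name semen of Landrace boars and oocytes of Long White pigs. The sequenced sperm may thus be of another breed than the sires of the PN embryos. Each group had 3 libraries of *Sus scrofa* RNA, none of them treated, and nothing states that the libraries of a group came from separate pools of cells. The p-values below therefore measure only the spread between these libraries, which may be technical.

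miR-221 and miR-222 are cut from a pair of neighbouring hairpins and share the same seed, the stretch near the 5′ end through which a miRNA recognises its targets. Among their best known targets are CDKN1B, an inhibitor of the cyclin-dependent kinases that drive the cell cycle, and KIT, the receptor through which KIT ligand acts on germ cells. In the mouse testis they are known for holding spermatogonia in the undifferentiated state through KIT. In Sscrofa11.1, MIR221 lies at chrX:40571068-40571137 and MIR222 at chrX:40571808-40571887 by the RefSeq annotation, so that 670 bases separate the hairpins. No other annotated gene overlaps the 820 bases that hold both (0 genes). The nearest protein-coding genes are CXHXorf36, 348057 bases away on the side of MIR221, and LOC110257782, 518192 bases away on the side of MIR222.

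MII oocyte libraries held 289183 to 381674 counts, PN embryo libraries 422630 to 771001 and sperm libraries 1640492 to 2455102, so depth and group cannot be told apart. Levels are given as CPM, the count divided by the library total and scaled to 1000000. The labels were checked with marker miRNAs. Of 5 sperm markers (the miR-34 and miR-449 miRNAs) 4 were found, and their summed level was 151499 to 153743 CPM in sperm against 2036 to 2455 CPM in the other 6 libraries, with miR-449b at 0 in all of those 6. Of 4 oocyte and embryo markers only miR-371 and miR-302 had a row. miR-371 was at 1087 to 1286 CPM in MII oocytes and PN embryos and at 0 in sperm, and miR-302 was at 16.9 to 35.5 CPM in PN embryos and at 0 in MII oocytes and sperm.

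Both main members were moderately abundant and present in all 9 libraries, and their group means in CPM differed by less than 2-fold. The library total by which CPM divides includes miR-205. It held 45.2% to 49.3% of the counts in MII oocytes and PN embryos and at most 0.0071% in sperm. The place of sperm relative to the other groups in CPM therefore depends on this total, and levels without miR-205 in the total were not computed. Leaving it out would raise the levels of MII oocytes and PN embryos and hardly change those of sperm. The differences of less than 2-fold and the order of sperm among the groups are thus given only for totals that include miR-205. ssc-miR-221-3p was at 487, 414 and 501 CPM in MII oocyte libraries 1, 2 and 3. In PN embryos it was at 338, 325 and 341 CPM, and in sperm at 386, 350 and 392 CPM. The libraries of the 3 groups did not overlap, with MII oocytes highest and PN embryos lowest. The means were 468 ± 46.7, 335 ± 8.59 and 376 ± 23.0 CPM (SD, n = 3), resting on 124 to 186 counts per MII oocyte library, 143 to 263 per PN embryo library and 606 to 962 per sperm library. By mean level it ranked 116 among the 597 names listed in MII oocytes, 139 among 879 in PN embryos and 136 among 806 in sperm.

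ssc-miR-222 was the less abundant of the pair in every library. It was at 149, 187 and 214 CPM in MII oocytes, at 99.4, 161 and 101 CPM in PN embryos and at 119, 113 and 113 CPM in sperm. MII oocytes lay above sperm without overlap, while PN embryo library 2 fell within the MII oocyte range and the other 2 PN embryo libraries fell below sperm. The means were 184 ± 32.7, 121 ± 35.1 and 115 ± 3.42 CPM (SD, n = 3). The counts were 57, 56 and 62 in MII oocytes and 42, 112 and 78 in PN embryos, against 195 to 277 in sperm.

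**Figure D1:**
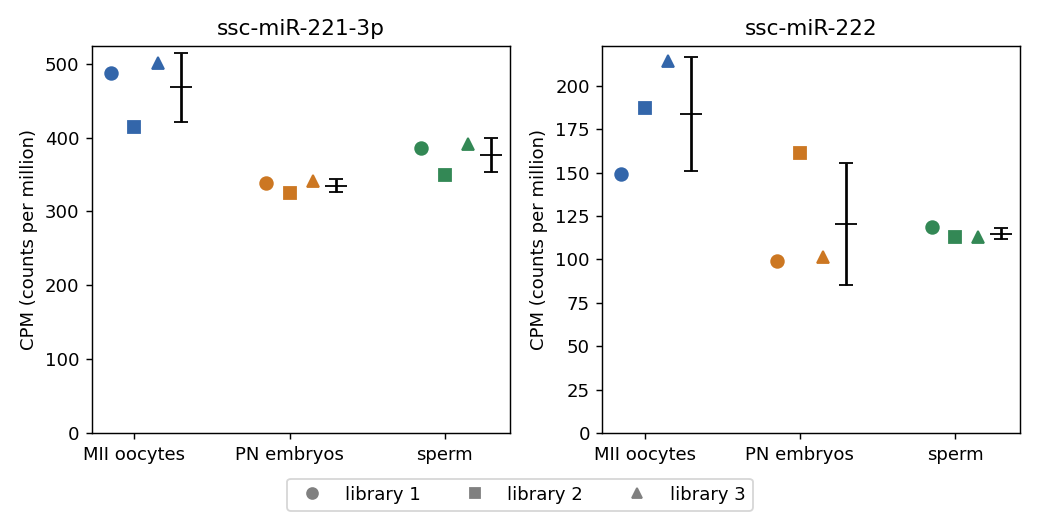
Level of ssc-miR-221-3p (left) and ssc-miR-222 (right) in CPM on a linear axis from 0, 1 point per library with the library number as its shape; the black mark and bars are the group mean ± SD (n = 3). ssc-miR-221-3p is highest in MII oocytes (414 to 501 CPM) and lowest in PN embryos (325 to 341 CPM), and the points of ssc-miR-222 spread most in PN embryos (99.4 to 161 CPM).

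The 5p strands were at the edge of detection. ssc-miR-221-5p_R-4 had 6 counts in sperm library 3 and ocu-miR-222-5p_L-2 had 5 counts in sperm library 1, and both were listed at 0 in the other 8 libraries. In sperm library 3 the 5p name made up 0.620% of 968 miR-221 counts (95% Clopper-Pearson interval 0.228% to 1.34%). In sperm library 1 it made up 2.5% of 200 miR-222 counts (0.817% to 5.74%). The table held 0 values of 1 read, 74 whole values from 2 to 4 and 442 values of 5, so a listed 0 may stand for a few reads. Taking it as up to 5 reads per library, the 0 of 455 miR-221 counts in MII oocytes allows a share of up to 3.30% and the 0 of 632 in PN embryos up to 2.37%. For miR-222 the limits were 8.57% of 175 counts and 6.47% of 232 counts. The intervals cover counting error only, since PCR copies are not independent molecules. The share of 5p counts in sperm was set against either other group in 4 two-sided exact permutation tests, with p = 1 for each. The smallest p that 3 libraries against 3 allow is 0.1. In each test only 1 library was above 0, so every relabelling gave a difference of the same size. These tests therefore could not separate the groups, and at these depths no difference was detectable.

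The pair was then compared between groups in a fit over the whole table, in which 587 names, among them 2 of the 4 members, passed the filter on low counts. A name counted as called when its Benjamini-Hochberg adjusted p (q) was under 0.05 and the groups differed at least 2-fold (log2 fold change of 1 or more in size), the thresholds of the study. The 2 members tested were the 3p name of miR-221 and ssc-miR-222. Both 5p names were left out by the filter.

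PN embryos were compared with MII oocytes to see which miRNAs differed after fertilization. ssc-miR-221-3p was 1.47-fold lower in PN embryos (95% interval 1.25 to 1.73), a log2 fold change of -0.55 ± 0.11 (SE) with an edgeR q of 0.00315. ssc-miR-222 had a log2 fold change of -0.65 ± 0.22 (SE), which puts it at 1.57-fold lower with an interval from 1.11 to 2.22, and an edgeR q of 0.0598. Neither was called (0 of 2), where 12.9% of all 587 names were. At q under 0.05 alone, 1 of the 2 passed, against 25.2% of all names, and 1 of the 2 had libraries that did not overlap, against 39.5% of all names. The DESeq2 Wald test also called 0 of the 2, and at an unadjusted edgeR p under 0.05 both passed, as did 35.6% of all names. All names together had a median log2 fold change of 0.083. The q of ssc-miR-221-3p rose to 0.153 without MII oocyte library 1 (log2 fold change -0.39) and to 0.0553 without PN embryo library 2 (-0.53). That of ssc-miR-222 fell to 0.0173 without PN embryo library 2 (-0.93). The median of all names also moved, to 0.27 without MII oocyte library 1 and to 0 without PN embryo library 2.

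Marker miRNAs of other cells were read in the same libraries. Of 7 markers of somatic, stromal and vessel cells of the ovary 6 were found, and their summed level was 1442 to 2188 CPM in MII oocytes, 1406 to 1608 in PN embryos and 752 to 826 in sperm. miR-199a, a miRNA of stromal cells, was at 629 to 867 CPM in MII oocytes, 374 to 495 in PN embryos and 45.6 to 51.9 in sperm, and miR-143, known from smooth muscle, at 70.7 to 104, 53.2 to 63.9 and 29.9 to 35.2 CPM. miR-202, a gonadal miRNA, was at 591 to 1142 CPM in MII oocytes, 821 to 893 in PN embryos and 10.2 to 23.7 in sperm. The members of the list did not share one order of groups. miR-383 made up most of the sum in sperm, at 638 to 731 CPM against 76.9 to 111 in MII oocytes and 104 to 131 in PN embryos. miR-126, the miRNA of blood vessel endothelium, was at 0 in all MII oocyte libraries, at 7.19 to 23.7 CPM in PN embryos and at 0 to 7.31 CPM in sperm. miR-145 was at 0 to 17.3 CPM in MII oocytes, 14.3 to 20.1 in PN embryos and 0 to 2.88 in sperm. Of 6 blood cell markers 6 were found, with a summed level of 166 to 314 CPM in MII oocytes, 837 to 875 in PN embryos and 268 to 380 in sperm. The sum was highest in PN embryos, as were the red cell miRNAs miR-451 and miR-144. miR-451 was at 62.2 to 134, 483 to 550 and 44.4 to 101 CPM. miR-144 was at 20.7 to 28.8, 140 to 164 and 0 to 9.75 CPM, lower in sperm than in MII oocytes, unlike the sum. miR-486 was at 83.0 to 99.6, 129 to 166 and 115 to 150 CPM. The white cell miRNAs had other orders, with miR-142 at 0 to 60.2, 28.5 to 38.8 and 91.1 to 93.7 CPM, miR-223 at 0, 10.1 to 24.6 and 8.08 to 15.1 CPM, and miR-150 at 0 to 13.1, 0 and 4.27 to 11.4 CPM. The part of other cells in the levels of miR-221 and miR-222 was not tested. Fewer cells of a type and less RNA per cell cannot be told apart in such libraries.

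The contrast of sperm with MII oocytes asks which miRNAs differ between the gametes. ssc-miR-221-3p was 1.19-fold lower in sperm (95% interval 1.03 to 1.39, log2 fold change -0.26 ± 0.10 SE, edgeR q = 0.0307). ssc-miR-222 was 1.52-fold lower (1.10 to 2.11, log2 fold change -0.61 ± 0.21 SE, edgeR q = 0.0191). Of the 2 names 0 were called, although 83.0% of all names were. At q under 0.05 alone both passed, as did 88.9% of all names, and both had libraries without overlap, as did 81.6% of all names. DESeq2 called 0 as well, and both were under an unadjusted edgeR p of 0.05, as were 89.1% of all names.

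The size of these differences depended on the scaling. With the size factors of DESeq2 in place of TMM, the log2 fold change of sperm against MII oocytes moved to -0.062 for ssc-miR-221-3p (edgeR q = 0.613) and -0.41 for ssc-miR-222 (edgeR q = 0.104), while the median of all names moved from 0 to 0.12. The difference grew when repeated names were counted once, to -0.52 for ssc-miR-221-3p and -0.87 for ssc-miR-222, and at equal depth (each library thinned to 289180 counts), to -0.55 and -0.91, where the median of all names was -0.51. The q of ssc-miR-221-3p was at or above 0.05 in 15 of 20 alternatives and that of ssc-miR-222 in 12 of 20. miR-205 alone held 45.2% to 49.3% of the counts in the MII oocyte and PN embryo libraries and at most 0.0071% in sperm. Without its rows the log2 fold changes were -0.068 and -0.42, with the median of all names at -0.12. The TMM factors were computed anew in that fit. Library totals alone without miR-205 were not tried, so the fit does not show how miR-205 affects the levels in CPM. Leaving out MII oocyte library 1 brought the log2 fold change of ssc-miR-221-3p to -0.00074 (edgeR q = 1). The median of all names was then 0.14. That library, at 487 CPM, lay near the MII oocyte mean of 468 CPM. Leaving out PN embryo library 1, 2 or 3, which are no part of this contrast, gave -0.099, -0.22 and -0.060 for ssc-miR-221-3p. Leaving out MII oocyte library 3 brought the log2 fold change of ssc-miR-222 to -0.34 (edgeR q = 0.197).

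Between sperm and PN embryos, ssc-miR-221-3p was 1.23-fold higher in sperm (95% interval 1.06 to 1.42, log2 fold change 0.30 ± 0.095 SE, edgeR q = 0.0126), but at -0.065 at equal depth. For ssc-miR-222 the log2 fold change was 0.046 ± 0.20 (SE), with an interval from -0.40 to 0.49 and an edgeR q of 0.834. None of the 2 was called (0), by DESeq2 either, where 86.2% of all names were. One name (1 of 2) passed at q under 0.05 alone and at an unadjusted p under 0.05, against 92.2% of all names by either measure, and 1 of 2 did not overlap between groups, against 92.2% of all names. The sign for ssc-miR-222 also depended on the scaling, with a log2 fold change of -0.32 at equal depth and -0.085 with library totals alone. The median of all names was -0.52 in the fit, -0.85 at equal depth and -0.66 with library totals, so both members stood above it each time. The q of ssc-miR-221-3p was 0.083 without PN embryo library 2 and 0.0761 without sperm library 3.

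**Figure D2:**
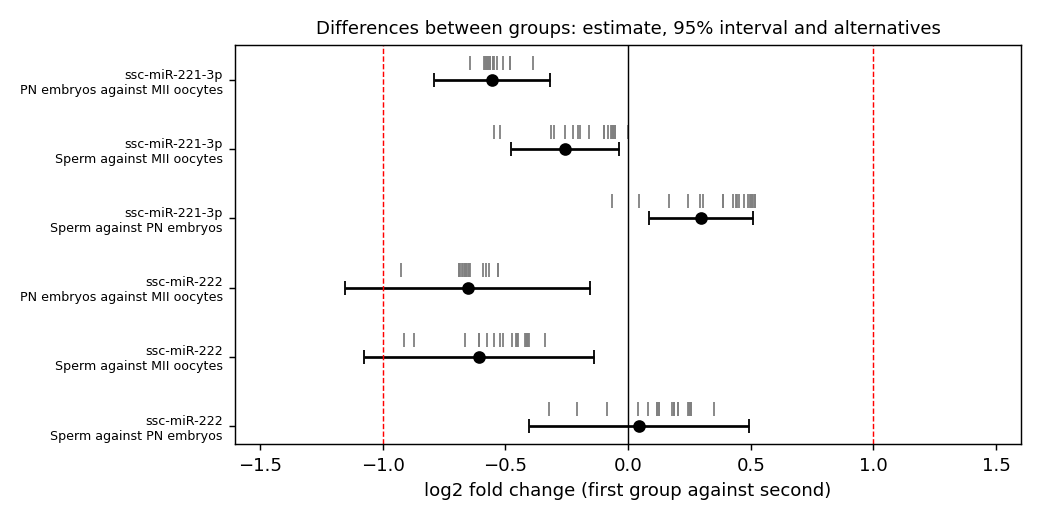
Log2 fold change of ssc-miR-221-3p and ssc-miR-222 in the 3 contrasts (black point, with its 95% interval from the edgeR fit); grey ticks are the 20 alternatives of each and the dashed red lines mark a log2 fold change of 1 in either direction. The grey ticks all lie between the red lines, the farthest at an absolute value of 0.93, and those of sperm against PN embryos fall on both sides of 0. Library totals without miR-205 are not among the alternatives.

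In none of the 20 alternatives per contrast was either name called (0), and the largest absolute log2 fold change in any of them was 0.93. Library totals without miR-205 were not among the alternatives. For the contrasts with sperm, a difference under 2-fold is thus shown only for the scalings tried. The interval of the difference lay within a factor of 2 in all 3 contrasts for ssc-miR-221-3p and in the contrast of sperm with PN embryos for ssc-miR-222. For ssc-miR-222 it reached a 2.22-fold difference in PN embryos against MII oocytes and 2.11-fold in sperm against MII oocytes, so that a 2-fold difference between these groups was not resolved at this depth.

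Most miRNAs differed far more between the 3 sources. The largest of a name's 3 absolute log2 fold changes was 0.55 for ssc-miR-221-3p and 0.65 for ssc-miR-222, against a median of 6.39 over the 587 names. That median includes 264 names listed at 0 in a whole group. With these at the bound set by 5 reads per library, the median was 3.34, and 20 names had a smaller value than ssc-miR-221-3p and 27 a smaller value than ssc-miR-222. This ranking was made after the levels were seen and is a description. In sperm against MII oocytes only 28 names had a fitted log2 fold change nearer to 0 than ssc-miR-221-3p and 58 nearer than ssc-miR-222. In PN embryos against MII oocytes, a contrast of much smaller differences, 329 and 358 names were nearer to 0.

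**Figure D3:**
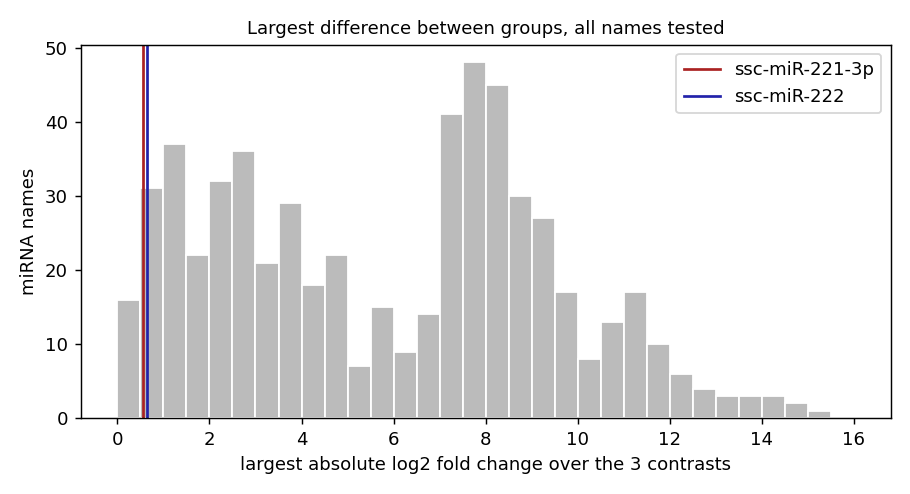
Number of miRNA names (vertical axis) by the largest absolute log2 fold change over the 3 contrasts (horizontal axis, bins 0.5 wide), for all 587 names tested; the red and blue lines are ssc-miR-221-3p at 0.55 and ssc-miR-222 at 0.65. Both lines stand at the left end; for the 264 names listed at 0 in a group the fitted value depends on the small count that the fit adds.

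Because both hairpins are thought to come from one transcript, the proportion of miR-222 within the pair was read in each library. miR-222 made up 23.5%, 31.1% and 30.0% of the miR-221 and miR-222 counts in MII oocytes, 22.7%, 33.1% and 22.9% in PN embryos and 24.0%, 24.4% and 22.2% in sperm. It was thus the minor member everywhere, and the libraries of the groups overlapped. The means were 28.2% ± 4.13, 26.2% ± 5.97 and 23.6% ± 1.16 (SD, n = 3). Counting error on reads alone gave 95% Clopper-Pearson intervals of 28.1% to 38.4% for PN embryo library 2 and 18.5% to 27.7% for PN embryo library 3, which did not overlap. The interval of PN embryo library 1, from 16.9% to 29.4%, overlapped both. PCR copies are not independent molecules, so these intervals may be too narrow, and a spread beyond counting error was not shown.

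The log2 ratio of miR-222 to miR-221 differed by -0.15 between PN embryos and MII oocytes, by -0.34 between sperm and MII oocytes and by -0.19 between sperm and PN embryos. The two-sided exact permutation p was 0.8, 0.3 and 0.8, with an adjusted p of 0.8 for each of the 3 comparisons, in a design whose smallest p is 0.1. The last difference turned to 0.061 without PN embryo library 2. The 2 miRNAs together came to 602 to 716 CPM in MII oocytes, 438 to 486 CPM in PN embryos and 463 to 508 CPM in sperm.

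**Figure D4:**
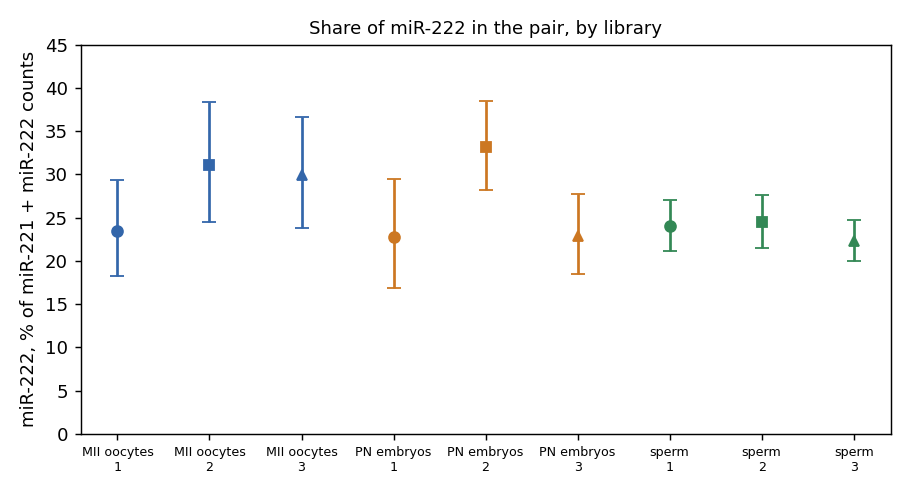
Share of miR-222 in the counts of miR-221 and miR-222 together, in percent, for each of the 9 libraries; bars are 95% Clopper-Pearson intervals, which cover counting error only. The 3 sperm libraries lie at 22.2% to 24.4%, and PN embryo library 2 at 33.1% stands above the other PN embryo libraries.

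Since miR-221 and miR-222 are X-linked, other miRNAs of the X chromosome were set beside them. Of 48 miRNAs listed, the RefSeq annotation of Sscrofa11.1 placed 25 on X, 24 were found under 37 names and 25 names passed the filter. In sperm against MII oocytes 3 of these 25 names were higher, 14 were lower and 8 were not called, with a median log2 fold change of -2.11, against 248 higher, 239 lower and a median of 0 over all 587 names. In sperm against PN embryos 3 were higher and 16 lower (median -2.20), against 228 higher and 278 lower over all names (median -0.52). In PN embryos against MII oocytes 0 of 25 were called (median 0.12), against 66 higher and 10 lower over all names (median 0.083).

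The 4 X-linked names of highest mean level over all 9 libraries, of which 6 were MII oocyte or PN embryo libraries, were all lower in sperm. ssc-miR-106a_R-1_1ss1AC, of the cell cycle-linked miR-17 family, had a log2 fold change of -1.22 ± 0.064 (SE) in sperm against MII oocytes. It was -2.49 ± 0.073 for ssc-miR-361-5p, -2.11 ± 0.087 for ssc-miR-676-3p_R+1 and -4.90 ± 0.14 for cfa-miR-652_1ss22CA (SE, edgeR q under 0.05 for each). The levels of these names in MII oocytes were 3034, 2524, 740 and 622 CPM. ssc-miR-221-3p, at 468 CPM there, was less abundant than all 4 and had a log2 fold change of -0.26. A ranking by the level in sperm, made after the values were seen, gives others. ssc-miR-363_R-2, at 408 CPM in sperm and 6.11 CPM in MII oocytes, and ssc-miR-98, at 375 and 238 CPM, then stand among the first 4. Their log2 fold changes were 5.87 ± 0.64 and 0.70 ± 0.18 (SE, edgeR q = 1.02e-05 and 0.00438), and the latter was not called. Looked for after the values were seen, 3 of the 25 names had a largest difference no greater than that of ssc-miR-222. They were ssc-miR-374a-5p_R-1 at 0.46, ssc-miR-421-3p at 0.39 and ssc-miR-374a-3p at 0.59. Their mean levels over the 9 libraries were 122, 29.0 and 14.8 CPM. The SE of their log2 fold changes reached 0.37, 0.43 and 1.18, against at most 0.22 for ssc-miR-222, so their differences were less well measured.

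**Figure D5:**
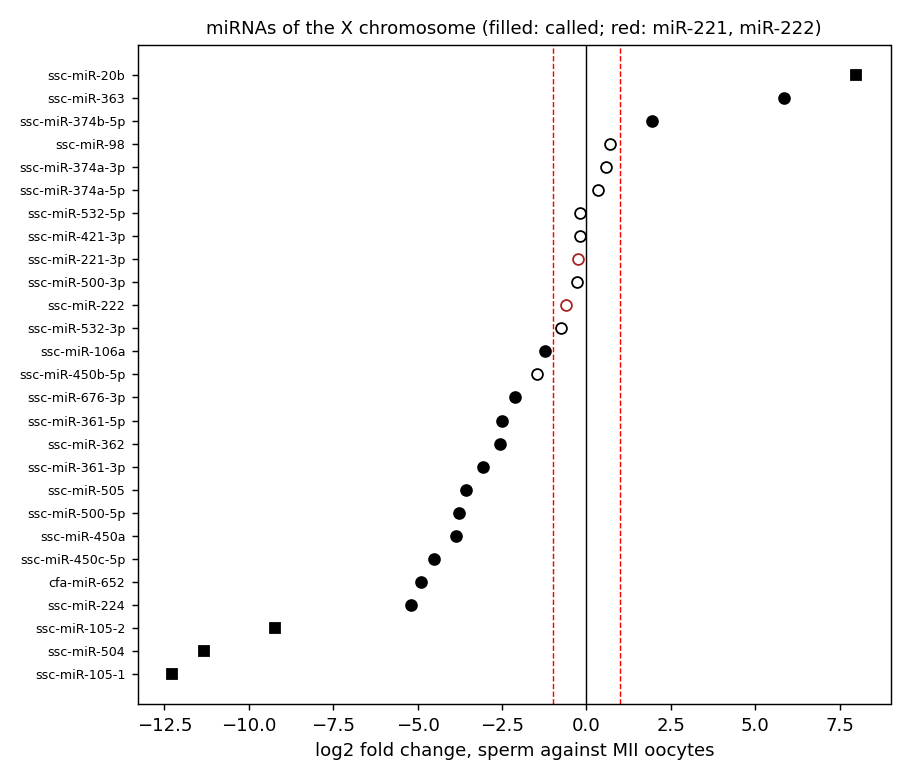
Log2 fold change of sperm against MII oocytes for the 25 X-linked names tested (black) and for ssc-miR-221-3p and ssc-miR-222 (red), with the ends of names left off; filled points were called, squares mark names listed at 0 in one of the 2 groups, whose fitted value rests on the prior count, and dashed lines mark a log2 fold change of 1. Both red points are open and lie at -0.26 and -0.61, while 14 names are called lower and 3 higher in sperm.

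The names with the pattern most like that of miR-221 over the 9 libraries were sought among 487 names of at least 10 CPM. Likeness was the root mean square difference of log2(CPM + 1) values, each centred on its own mean, whose median over these names was 2.36 for miR-221 and 2.33 for miR-222. Closest to miR-221 were ssc-miR-20a-5p_R+1 at 0.185, ssc-miR-107_R-2 at 0.187, ssc-miR-7-5p at 0.213 and ssc-miR-146a-5p at 0.241. ssc-miR-20a-5p_R+1 had the same order of group means, at 4312 ± 559 CPM in MII oocytes, 3269 ± 44.6 in PN embryos and 4260 ± 465 in sperm (SD, n = 3). ssc-miR-7-5p did too, at 4241 ± 633, 3330 ± 95.8 and 4065 ± 546 CPM.

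Closest to miR-222 were ssc-miR-107_R-2 at 0.278, eca-mir-8986a-p5_1ss1GC at 0.309, ssc-miR-146a-5p at 0.316 and ssc-miR-183_R-1 at 0.317. ssc-miR-107_R-2, near to both, was at 1307 ± 12.5 CPM in MII oocytes, 1185 ± 76.8 in PN embryos and 1060 ± 25.6 in sperm (SD, n = 3). ssc-miR-221-3p itself stood at 0.285 from miR-222, second only to ssc-miR-107_R-2, and ssc-miR-222 stood at 0.288 from miR-221, behind 7 other names (rank 8). These likenesses are descriptions over libraries that share their group and depth.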

How the data were processed

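Small RNA was sequenced in 9 libraries, 3 per group, mapped to groups by their titles. The members and lists were chosen with earlier results of these data known. Adapter ligation, reverse transcription, PCR and gel purification made the libraries, per the labels. The table deposited by the authors gives estimated counts for each name and library, raw per the file headers, of which 19.8% of those above 0 were not whole (tolerance 0.001), while 0 values of the members were. The submitters' processing notes name Sscrofa11.1. The aligner, caller and count filter are not given in the sources used here. 0 further columns of samples were present. Sequences were not used here, so names with a shared seed were not listed.

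Rows of the same name were summed (105 names were repeated, 0 of them members). Counts were rounded and fitted with the edgeR 4.0.16 quasi-likelihood test in R 4.3.3, with all 9 libraries, group as the only factor, TMM normalization, filterByExpr (minimum count 10) and Benjamini-Hochberg adjustment over 587 names per contrast. Names tested held 99.8% of all counts. Each standard error was the log2 fold change over the root of F, and 95% intervals from the t quantile at the fit's degrees of freedom. The code was tested on simulated data. A listed 0 was taken as up to 5 reads per library in limits on shares and in bounds on folds. Ratios and shares were compared by two-sided exact permutation tests (scipy 1.17.1) and adjusted over the comparisons of each family. Alternatives were DESeq2 1.42.0 and its size factors, library totals, 2 other filters, fits of the 2 groups alone, the replicate block, rows summed by miRNA, repeated names counted once and each library left out. Thinning and removal of miR-205 were added after the data were seen. Named were all members, the 4 most alike names per miRNA and the 4 most abundant X-linked names. Other names are identified as chosen after their values were seen, or are markers.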

Additional observations from a re-analysis of the deposited data

How the results depend on the processing

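No member was called (0) in any contrast under any of the 20 alternatives, which did not include library totals without miR-205. The sizes of the differences were less stable. For PN embryos against MII oocytes, log2 fold changes ran from -0.64 to -0.39 for ssc-miR-221-3p and from -0.93 to -0.53 for ssc-miR-222 when each library was left out. ssc-miR-222 reached a q under 0.05 with the DESeq2 Wald test (-0.67, q = 0.04997) and without miR-205 (-0.67, edgeR q = 0.0480). For sperm against MII oocytes the leave-one-out range was -0.30 to -0.00074 for ssc-miR-221-3p and -0.61 to -0.34 for ssc-miR-222. The former was over q of 0.05 with DESeq2 size factors (-0.062), the DESeq2 Wald test (-0.061), no filter (-0.055), at least 10 counts in 3 libraries (-0.16), only the 2 groups fitted (-0.19), rows summed by miRNA (-0.098) and no miR-205 (-0.068). The latter was over it with DESeq2 size factors (-0.41), the DESeq2 Wald test (-0.42), no filter (-0.41), rows summed by miRNA (-0.45) and no miR-205 (-0.42). Both grew with repeated names counted once (-0.52 and -0.87, edgeR q = 0.000855 and 0.0028) and at equal depth (-0.55 and -0.91, edgeR q = 0.00164 and 0.00769). For sperm against PN embryos the leave-one-out range was 0.25 to 0.52 for ssc-miR-221-3p and 0.041 to 0.35 for ssc-miR-222. ssc-miR-221-3p was over q of 0.05 with library totals (0.17) and with repeated names counted once (0.046), and turned to -0.065 at equal depth. ssc-miR-222 turned to -0.085 with library totals, -0.21 with repeated names counted once and -0.32 at equal depth. The log2 ratio of miR-222 to miR-221 ran from -0.32 to 0.061 over the fits without 1 library for sperm against PN embryos, and kept its sign in the other 2 contrasts. The causes were not tested.

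The deviations of same-numbered libraries from their group means had correlations from -0.21 to 0.028, so no pairing by number was seen. Deviations from means of 3 libraries cannot exclude a pairing. With the replicate block the log2 fold changes were -0.55 and -0.69 for PN embryos against MII oocytes, -0.26 and -0.61 for sperm against MII oocytes and 0.29 and 0.081 for sperm against PN embryos, ssc-miR-221-3p first, and the block changed no call. Depth limits the 5p names, which had at most 6 counts in a library, and ssc-miR-222 in MII oocytes and PN embryos, which had at most 112.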
